A study of Homo sapiens with 6 samples.

Results

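DEK, a chromatin protein that binds DNA, was mapped by ChIP-seq in U937, an established human myeloid cell line, and the peaks described here are those that fall outside chromosomes 1 to 22, X and Y of hg19. These chromosomes are called the main chromosomes below. A peak belonged to the set if the deposited list placed it on any other sequence, so that no measured value was used to choose it. The set had 87 of 15017 peaks in DEK replicate 1 and 442 of 152779 in DEK replicate 2, or 529 of 167796 over both lists. The mitochondrial genome had no peak in either list.

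The series has 6 samples from unmodified U937 cells, all grown in the same medium and crosslinked with formaldehyde: DEK precipitated with an Abcam antibody in 2 independent precipitations, trimethylated histone H3 lysine 4 (H3K4me3) precipitated in the same number of replicates, and non-precipitated input chromatin, likewise replicated. All samples come from a single cell line, and no treatment or time course was part of the design. For each DEK peak the lists give the tags (sequenced fragments assigned to the peak), the length, the fold enrichment over the local background and the MACS score (10 times −log10 p), while the H3K4me3 lists give positions only. How many reads each sample had in total is not listed, which leaves the depth unknown. The false discovery rate in the list was 100% for every replicate 1 peak, and it reached at most 16.67% in replicate 2.

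A genome build holds more than the numbered chromosomes. Random contigs are pieces whose chromosome is known but whose place on it is not, unplaced contigs (chrUn) are pieces of unknown chromosome, and haplotype contigs are alternative versions of a stretch that a main chromosome also carries. Many such pieces consist of repeated DNA that resists assembly: ribosomal DNA (rDNA), from which RNA polymerase I transcribes the precursor of the 18S, 5.8S and 28S ribosomal RNAs, alpha satellite, the tandem repeat of centromeres, and the D4Z4 array, each copy of which holds the gene DUX4, a transcription factor of the early embryo that is silent in most adult tissues. A read that matches several places equally well is assigned by an aligner to a single one of them, so that the tags of a copy can come from any copy with the same sequence.

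Sequences under or beside the peaks are shown first, because the description below turns on them. They were read from GRCh37, whose unplaced and random contigs carry the GL numbers in the hg19 names. The rDNA contig chrUn_gl000220 is shown at its 5.8S match (chrUn_gl000220:112015-112183, plus strand, capitals mark the match to a GENCODE 5.8S entry), at the hairpin MIR10396B that lies just before the replicate 1 peak (chrUn_gl000220:108516-108586, plus strand, capitals mark the hairpin) and around the summit of the replicate 1 peak with the most tags (chrUn_gl000220:154517-154637, the capital marks the summit).
5.8S match: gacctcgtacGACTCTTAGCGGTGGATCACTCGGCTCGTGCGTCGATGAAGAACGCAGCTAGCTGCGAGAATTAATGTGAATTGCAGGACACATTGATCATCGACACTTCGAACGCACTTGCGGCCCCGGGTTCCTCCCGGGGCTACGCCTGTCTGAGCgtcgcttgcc
MIR10396B: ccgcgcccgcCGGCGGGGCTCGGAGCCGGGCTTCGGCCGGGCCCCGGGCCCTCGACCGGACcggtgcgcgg
rDNA summit: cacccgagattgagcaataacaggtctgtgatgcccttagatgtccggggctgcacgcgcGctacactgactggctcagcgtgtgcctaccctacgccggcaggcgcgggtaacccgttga

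The D4Z4 array on chrUn_gl000228 is shown at a DUX4 start (chrUn_gl000228:76119-76259, plus strand, the capital marks the first base of the gene by RefSeq). The sequence reads ATG from that base, so this start may be that of the coding sequence and not of transcription. This start lay in no peak, with the nearest peak edge 213 bp away. The array is also shown at the match to the hairpin MIR8078 that recurs in each copy (chrUn_gl000228:74280-74403, capitals mark the match).
DUX4 start: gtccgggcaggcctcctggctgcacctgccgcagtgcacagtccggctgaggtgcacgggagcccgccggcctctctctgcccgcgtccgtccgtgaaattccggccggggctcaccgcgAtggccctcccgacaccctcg
MIR8078 match: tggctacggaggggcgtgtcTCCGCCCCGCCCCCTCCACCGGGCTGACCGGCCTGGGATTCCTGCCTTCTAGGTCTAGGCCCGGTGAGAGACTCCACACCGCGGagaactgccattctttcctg

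The repeats with a period of 48 bp on chr17_gl000205_random (136680-136823), chrUn_gl000219 (171170-171313) and chrUn_gl000224 (148625-148768) lie under replicate 1 peaks, and the repeat with a period of 171 bp on chr19_gl000208_random (46234-46504) lies under a replicate 2 peak. All are given on the plus strand, and capitals mark a base that equals the base exactly 1 period earlier.
Repeat on chr17_gl000205_random: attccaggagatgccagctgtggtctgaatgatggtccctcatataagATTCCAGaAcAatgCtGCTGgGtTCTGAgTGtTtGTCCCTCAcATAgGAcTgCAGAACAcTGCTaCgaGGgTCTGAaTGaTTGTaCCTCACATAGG
Repeat on chrUn_gl000219: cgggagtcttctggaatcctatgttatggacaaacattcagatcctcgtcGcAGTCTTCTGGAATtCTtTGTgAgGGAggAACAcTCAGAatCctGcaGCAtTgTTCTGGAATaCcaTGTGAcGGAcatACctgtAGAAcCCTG
Repeat on chrUn_gl000224: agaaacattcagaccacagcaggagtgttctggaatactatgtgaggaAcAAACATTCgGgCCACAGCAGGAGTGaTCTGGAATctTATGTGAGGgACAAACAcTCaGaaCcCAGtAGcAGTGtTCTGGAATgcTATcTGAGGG
Repeat on chr19_gl000208_random: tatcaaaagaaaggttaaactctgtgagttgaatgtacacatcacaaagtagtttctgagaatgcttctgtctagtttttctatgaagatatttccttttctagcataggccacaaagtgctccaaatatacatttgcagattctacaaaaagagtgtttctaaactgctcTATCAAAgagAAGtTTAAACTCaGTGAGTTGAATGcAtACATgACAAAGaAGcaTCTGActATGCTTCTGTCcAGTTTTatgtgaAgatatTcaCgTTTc

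The contig peaks made up 0.579% of the replicate 1 list (95% Wilson interval 0.470% to 0.714%) and 0.289% of the replicate 2 list (0.264% to 0.318%); these intervals cover counting error only. In replicate 1 they fell into 23 haplotype, 20 random and 44 unplaced peaks, and in replicate 2 into 160, 120 and 162. In all, 54 contigs carried a DEK peak. Replicate 1 had peaks on 30 of them, every one of which also carried a replicate 2 peak, and 24 contigs had peaks in replicate 2 only. Of the 59 random and unplaced contigs of the reference, 13 had no DEK peak in either list.

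The contigs with the most replicate 1 peaks were chr7_gl000195_random with 11, chrUn_gl000219 with 8, chrUn_gl000224 and chr6_dbb_hap3 with 6 each, and chr17_gl000205_random and chrUn_gl000214 with 5 each. In replicate 2 the contigs with the most peaks were others: chr17_ctg5_hap1, an alternative version of a stretch of chromosome 17, had 97, followed by the D4Z4 contig chrUn_gl000228 with 28, chrUn_gl000225 with 17, chr19_gl000208_random, with its 171 bp repeat, with 16 and chr4_gl000194_random with 15. In replicate 1 these 5 contigs held 2, 0, 2, 0 and 0 peaks. The D4Z4 contig, the contig of the 171 bp repeat and chr4_gl000194_random were thus absent from the replicate 1 list, which was the shorter list as a whole.

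**Figure D1:**
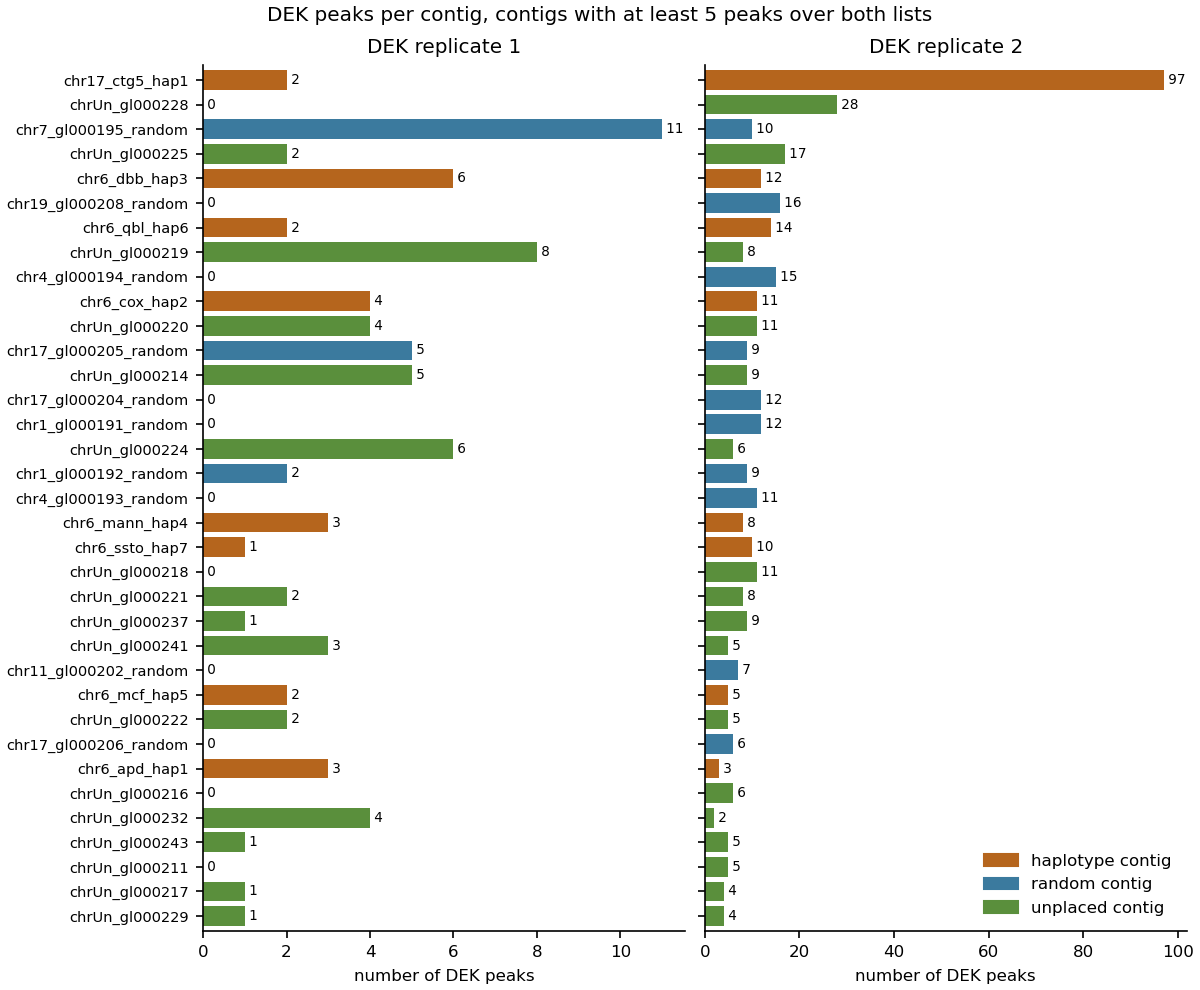
Number of DEK peaks (horizontal axis, a separate scale for each list) on each contig with at least 5 peaks over both lists, with replicate 1 on the left and replicate 2 on the right and the kind of contig by colour. The longest bar is chr7_gl000195_random with 11 peaks in replicate 1 and chr17_ctg5_hap1 with 97 in replicate 2.

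Relative to their length, the 6.11 Mb of random and unplaced contigs held 10.5 peaks per Mb in replicate 1 against 4.82 per Mb of the main chromosomes, and 46.1 against 49.2 per Mb in replicate 2. The peaks covered 2.06% of these contigs against 0.584% of the main chromosomes in replicate 1, and 6.21% against 4.32% in replicate 2. The 2 lists therefore differed in where the contigs stood by number of peaks, while the covered share was above that of the main chromosomes in each.

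Contig peaks held a median of 68 tags in replicate 1 (quartiles 42 and 102.5) against 47 on the main chromosomes (31 and 78). In replicate 2 the medians were 21 (15 and 42) and 20 (15 and 29). The ratio of the medians was thus 1.45 in replicate 1 and 1.05 in replicate 2, a difference between replicates that is larger than the excess in replicate 2. At a score of at least 100 the ratio in replicate 1 turned to 0.918, with 27 contig peaks left, and that in replicate 2 was 1.29. With the longer list cut to the length of the shorter, replicate 2 had 63 contig peaks and a ratio of 1.48, close to the 1.45 of replicate 1. Without the haplotype contigs the ratios were 1.69 and 1.48. The median length was 1093 bp against 1016 bp in replicate 1 and 749 bp against 697 bp in replicate 2, ratios of 1.08 and 1.07. At a score of at least 100 the length ratio was 0.968 in replicate 1 and 1.10 in replicate 2. By kind of contig it was 0.906 and 0.877 for haplotype, 1.42 and 1.15 for random and 1.20 and 1.39 for unplaced contigs. Per kb of peak, the medians were 51.6 against 45.3 tags and 28.7 against 28.2 tags.

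The 3 kinds of contig went different ways. Unplaced contigs had the highest medians, with 88.5 tags in replicate 1 and 37 in replicate 2, or 1.88 and 1.85 times those of the main chromosomes. Random contigs had medians of 77 and 22 tags, ratios of 1.64 and 1.10. Haplotype contigs, whose sequence resembles that of a main chromosome, had medians of 42 and 16 tags and lay below the main chromosomes in each list, at 0.894 and 0.800 times their median. The fold enrichment took another order in replicate 1, where haplotype peaks had a median of 7.81, random peaks 4.36 and unplaced peaks 4.44 against 5.57 on the main chromosomes. In replicate 2 the corresponding medians were 5.02, 4.53, 4.60 and 4.58. With no more than 2 replicates and no test over peaks, which are not replicates, these medians describe the lists.

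**Figure D2:**
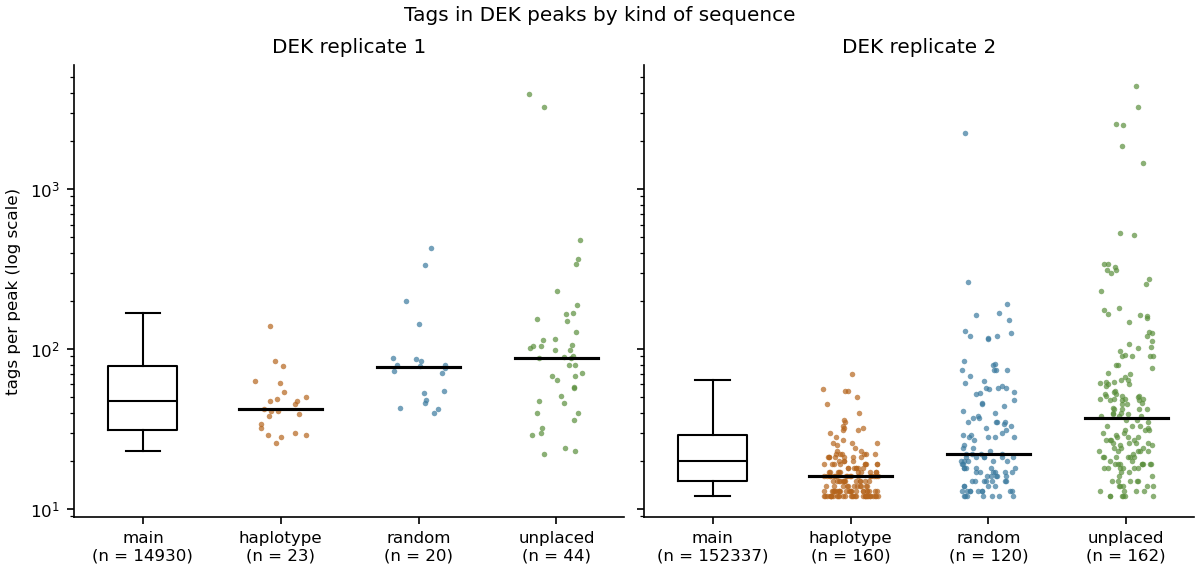
Tags per peak (vertical log scale) on haplotype, random and unplaced contigs, each point a peak and each bar the median, beside the main chromosomes, shown as a box of the quartiles with the median and whiskers from the 5th to the 95th percentile. Unplaced contigs have the highest medians, 88.5 tags in replicate 1 and 37 in replicate 2, and the highest points, at 3940 and 4431 tags, are rDNA peaks.

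Among contig peaks the highest tag counts belonged to rDNA. chrUn_gl000220 holds more than 1 copy of the transcribed unit: the 5.8S sequence matched at 112025-112173 and at 155997-156145, with 94.6% identity to a GENCODE 5.8S pseudogene entry, and the 2 matches lay 43972 bp apart. With 10 bases on each side they are identical. In RefSeq's order of genes 18S comes before 5.8S, and 28S follows it.

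In replicate 1 a peak of 3287 tags at 108754-112845 ran across the first 5.8S match and a peak of 3940 tags at 152611-156821 across the second. These were the peaks with rank 2 and rank 1 by tags in the whole list, where no main chromosome peak held more than 1861. Replicate 2 had 2526 tags at 108737-112843 and 3274 at 152731-156815, in almost the same place. Relative to the start of the 5.8S match, the 4 peaks began between 3386 and 3266 bp before it and ended between 818 and 824 bp after it. The summits lay 1424 and 1420 bp before the match in replicate 1 and 1409 bp before it in the second copy of replicate 2, while the summit of the first copy of replicate 2 lay 2639 bp before it. The peaks started between 63 and 183 bp after the hairpin MIR10396B. The 4090 bp that both lists share in the first copy are identical, base for base, to the second copy. Reads from either copy can thus be assigned to the other, so the 2 copies are not separate observations.

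Replicate 2 had 3 further rDNA peaks. The stretch after 5.8S, where 28S lies, carried 1864 tags at 112993-116398 in the first copy and 2542 tags at 157022-160378 in the second, with no replicate 1 peak. The 7648 bp before the hairpin in the first copy (100873-108520), which include the match to the hairpin MIR6724-2, carried 4431 tags, the second highest count of the list after a main chromosome peak of 4932, and the corresponding stretch of the second copy carried no peak in either list. In replicate 2 the 5 rDNA peaks held 14637 tags, or 40.2% of all tags in contig peaks, and in replicate 1 the 2 rDNA peaks held 7227, or 48.0%. Without chrUn_gl000220, contig peaks held 0.768% of the tags of the replicate 1 list in place of 1.52%, and 0.507% in place of 0.872% in replicate 2.

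High counts did not go with high fold enrichment in rDNA. The replicate 1 peak of 3940 tags was enriched 2.15-fold with a score of 59.28, which is rank 10186 by score, and the peak of 3287 tags had 2.76 and 670.14. Fewer than 0.1% of replicate 1 peaks had a fold enrichment this low (percentiles 0.00666 and 0.0799). In replicate 2 the fold enrichment of the rDNA peaks ran from 2.22 to 4.37. The score of 3100, the highest of the list, was reached by 3 of them and shared by 6 peaks in all. Those 3 rDNA peaks had a false discovery rate of 16.67%, also the highest of the list. The 100-mers of the peaks that cover 5.8S were all found at several places, with a median of 2 copies in the reference.

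H3K4me3, a mark of active promoters, was called over the same stretch in replicate 1 only. Its peaks there lay at 108982-112828 and 113076-116400 in the first copy and at 157144-160390 in the second. H3K4me3 replicate 2 had no peak between the hairpin and the end of either copy. Its nearest peak, at 96325-100173, ended 11852 bp before the first 5.8S match.

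**Figure D3:**
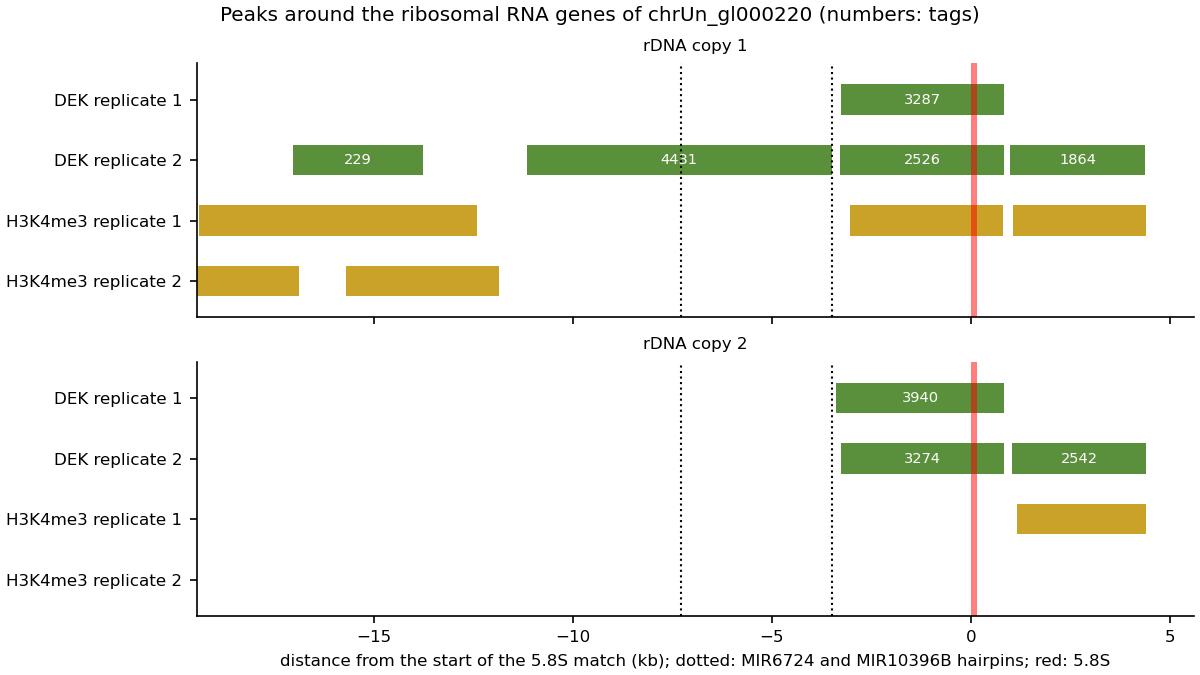
Peaks of the DEK and H3K4me3 lists (rows) against the distance from the start of the 5.8S match in kb (horizontal axis), for the first and second rDNA copy of chrUn_gl000220. White numbers are tags, red marks the 5.8S match and dotted lines mark the hairpins MIR6724-2 and MIR10396B. The DEK peaks across 5.8S begin and end at nearly the same distances in both replicates and both copies, and the peaks after 5.8S are listed in DEK replicate 2 only. The copies share their sequence there and are not separate observations.

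On the D4Z4 contig the DEK peaks followed the repeat. chrUn_gl000228 holds 13 matches to the RefSeq window around the DUX4 start, all with the same sequence and 3306 bp apart, and 14 matches to the MIR8078 hairpin at the same spacing. Replicate 2 had 28 peaks on this contig and 25 of them in the array, from 70337 to 110908, with 13 to 61 tags each (median 30, 808 in all). Replicate 1 had none.

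Within a copy the peaks kept to the same stretches. All of the first 12 copies were covered between 400 and 800 bp after the DUX4 start, none was covered between 1700 and 2100 bp after it, and 8 were covered between 2400 and 2800 bp. Of the 25 summits, 2 lay before the first matched DUX4 start. Of the other 23, 9 lay between 1190 and 1373 bp after the DUX4 start of their copy, 8 between 2599 and 2677 bp and 6 between 57 and 771 bp, where the groups were divided at the widest gaps after the values were seen. The DUX4 start itself lay in a peak in 5 of 13 copies, and the MIR8078 match in 12 of 14. No H3K4me3 peak of either replicate held a DUX4 start of this contig. Every 100-mer of the typical peak here (median 100%) was also found on the main chromosomes.

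The main chromosomes carry D4Z4 arrays as well, and replicate 2 peaks were found there too. Matches to the DUX4 window numbered 8 on chromosome 4 (98.3% to 98.7% identity) and 6 on chromosome 10 (97.7%). A replicate 2 peak lay in all 8 and in all 6 of these copies, and it covered the DUX4 start in 6 and 5. Replicate 1 had no peak in any of them. Reads from sequence that these arrays share with the contig can be assigned to either, so these peaks are not separate evidence.

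**Figure D4:**
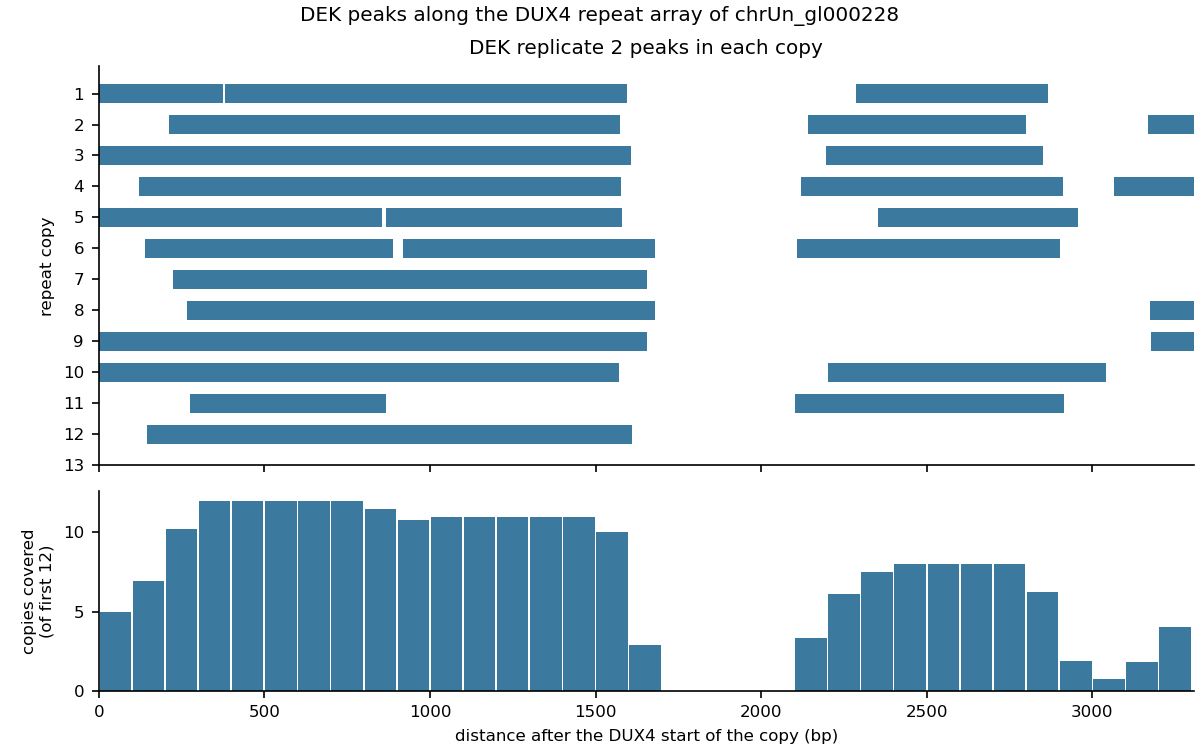
Replicate 2 DEK peaks (bars) in each copy of the D4Z4 array of chrUn_gl000228, against the distance after the DUX4 start of the copy in bp, with the number of the first 12 copies covered in bins of 100 bp below. The peaks stop short of the stretch from 1700 to 2100 bp in every copy, and copy 13 has no peak. Copies with the same sequence can receive each other's reads and are not separate observations.

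Other tandem repeats carried peaks as well. A period was taken as the shift at which the largest share of a peak's bases equals the base that many positions later. Of the replicate 1 peaks on random and unplaced contigs, 8 of 64 had a share of at least 50%, against 0.801% of all replicate 1 peaks with sequence. In replicate 2 it was 25 of 282, against 1.57% of all. The share of tandem repeats in the full sequence of these contigs was not measured.

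The 8 replicate 1 peaks lay on chr17_gl000205_random (3), chrUn_gl000219 (2) and chrUn_gl000224 (3), and had a period of 48 bp or, in 1 case, a multiple of it, 288 bp. Among them the peak at 134646-142983 of chr17_gl000205_random had 430 tags and a length of 8338 bp, and that at 168682-174321 of chrUn_gl000219 had 338 tags. In the stretches shown above, 73, 66 and 78 of 96 bases equalled the base 48 positions earlier. Replicate 2 met the first of these peaks at 134735-136364, with 129 tags and a score of 728.17, and none of the other 7.

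In replicate 2 all 16 peaks of chr19_gl000208_random were tandem repeats, 13 of them with a period of 171 bp, which is also the length of the alpha satellite unit, 2 with 170 bp and 1 with 341 bp. They had 17 to 168 tags each, 894 in all, and a median GC content of 36.8%. All 3 peaks of chr9_gl000199_random had periods of 170, 171 and 341 bp. Replicate 1 had no peak on either contig, and neither did it on chrUn_gl000216, where 2 replicate 2 peaks had periods of 20 and 25 bp. The remaining 4 peaks lay on chr17_gl000204_random, chr4_gl000193_random, chrUn_gl000217 and chrUn_gl000225.

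Repeated sequence was more common under contig peaks than under DEK peaks as a whole. How common it is over the full sequence of these contigs was not measured. At least 50% of the 100-mers were found at several places of the reference in 18 of 64 replicate 1 peaks on random and unplaced contigs (28.1%), against 2.50% of all replicate 1 peaks, and in 108 of 282 replicate 2 peaks (38.3%), against 2.61% of all. Conversely, 22 of 64 and 79 of 282 peaks consisted wholly of 100-mers found at a single place, against 89.1% and 80.2% of all peaks. The tag counts of peaks with repeated 100-mers can include reads that came from elsewhere, and the part of this in the counts was not tested. The median GC content was 43.6% in replicate 1, against 44.9% on the main chromosomes, and 53.5% in replicate 2, against 49.8%.

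**Figure D5:**
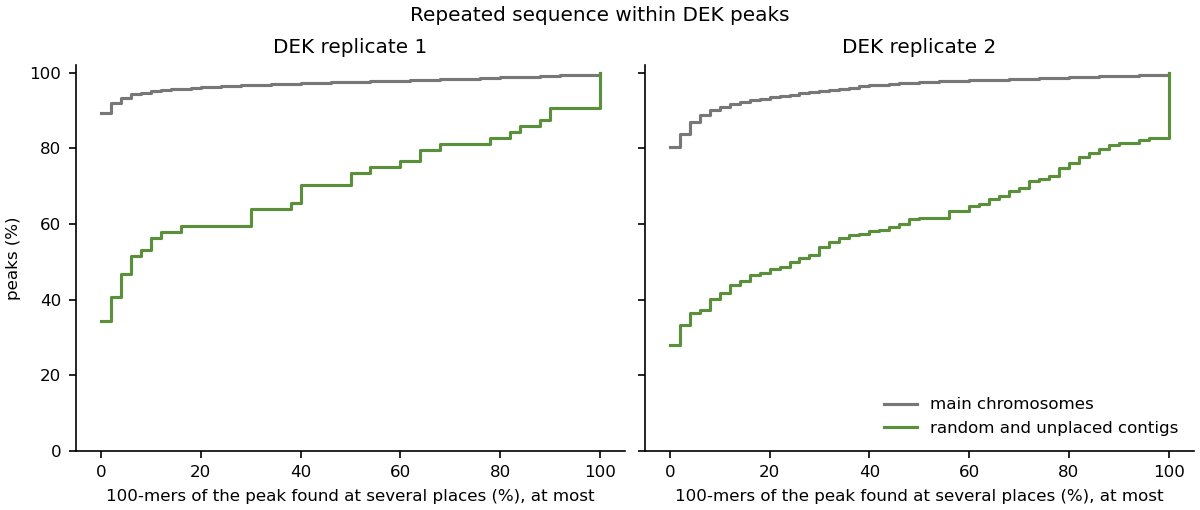
Cumulative share of DEK peaks (vertical axis, %) by the share of their 100-mers found at several places of the reference (horizontal axis, %), for random and unplaced contigs and for the main chromosomes. The curve of the contigs starts at 34.4% in replicate 1 and 28.0% in replicate 2, the peaks without any repeated 100-mer, and lies below that of the main chromosomes throughout.

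The 2 replicates shared 18 intervals off the main chromosomes, on 15 contigs. They came from 18 of 87 replicate 1 contig peaks (20.7%, 95% Wilson interval 13.5% to 30.4%), against 27.4% of all replicate 1 peaks, and from 17 of 442 replicate 2 contig peaks (3.85%, 2.42% to 6.07%), against 2.90% of all. These shares were close to the background in each list. An overlap of at least 1 bp was enough, and 9 intervals remained when at least 50% of each peak had to overlap.

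Of the 18 intervals, 10 were on unplaced, 6 on haplotype and 2 on random contigs. Each tag count given for an interval is that of the whole peak that meets it, which can be longer than the interval, so that these counts are not compared between replicates. The rDNA intervals are described above, as is the interval of chr17_gl000205_random at 134735-136364. The repeat shown for that contig lies outside this interval. The replicate 2 peak there had a period share of 37.9%, below the 50% used for tandem repeats. chrUn_gl000225 had an interval at 41058-43472, where a replicate 1 peak of 368 tags over 3811 bp met a replicate 2 peak of 256 tags over 4054 bp, and another at 209480-210133, where peaks of 68 and 50 tags met over 904 and 749 bp. chrUn_gl000232 had the longest replicate 1 peak of all contigs, 9023 bp with 483 tags, of which only 26397-27566 met a replicate 2 peak, with 46 tags. On chrUn_gl000231 (18476-19394) a replicate 1 peak of 101 tags over 919 bp lay inside a replicate 2 peak of 161 tags over 3346 bp. On chr7_gl000195_random (45845-46668) a replicate 2 peak of 38 tags over 824 bp lay inside a replicate 1 peak of 144 tags over 2704 bp. The peaks at chrUn_gl000219 (105529-106354) had 91 tags over 1004 bp and 71 over 1052 bp, and those at chrUn_gl000237 (2169-2870) had 24 over 702 bp and 30 over 1202 bp. The peaks of a pair thus differed in extent by up to several times.

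The gene starts nearest to shared intervals were found by sequence, since no annotation of these contigs was used here. The interval at 29722-31057 of chrUn_gl000214, where a replicate 1 peak of 232 tags over 4782 bp met a replicate 2 peak of 112 tags over 2606 bp, held matches of 95% to the starts of the zinc finger gene ZNF717 and the non-coding genes LINC01666 and LOC101930100, whose windows resemble each other. The interval at 18024-18803 of chrUn_gl000229, in peaks of 51 tags over 1017 bp and 20 tags over 780 bp, held a match of 96.3% to the start of LINC00273, a non-coding gene. None of the other shared intervals on random or unplaced contigs lay within 1 kb of a matched gene start.

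In all, 93 of 35116 RefSeq promoter windows and 13 of 1562 miRNA hairpins matched a random or unplaced contig. The start sites formed 108 loci when starts within 500 bp were joined. A DEK peak covered 3 loci in replicate 1 (2.78%) and 17 in replicate 2 (15.7%), 5 of which were DUX4 starts, while 2.64% and 17.1% of the 64309 annotated gene starts on the main chromosomes were covered. H3K4me3 peaks covered 19 loci in replicate 1 (17.6%) and 14 in replicate 2 (13.0%), against 24.4% and 21.7% of the annotated gene starts.

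All 14 loci with H3K4me3 in replicate 2 also had it in replicate 1, and 11 of them had no DEK peak in either list, while this held for 51.5% of the 13780 annotated gene starts on the main chromosomes with H3K4me3 in both replicates. Among these were 4 loci of chrUn_gl000223 that matched the starts of the zinc finger genes ZNF140, ZNF84, ZNF26 and ZNF605 with 100% identity. This contig had 12 H3K4me3 peaks in replicate 1 and 4 in replicate 2, but no DEK peak. On chr1_gl000191_random H3K4me3 covered the starts of PNRC2, a nuclear receptor coactivator, and SRSF10, a splicing factor, in both replicates. DEK was listed at PNRC2 alone, with 57 tags and a score of 314.05 in replicate 2 (28768-30157). The KIR genes of chr19_gl000209_random, receptors of natural killer cells, had no H3K4me3 at their starts in either list, and DEK covered 1 locus of them in replicate 2, with 14 tags (86331-87011). These genes were chosen after their values were seen. Only their starts on these contigs were looked up, and whether other copies of the same genes carried DEK peaks was not tested.

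H3K4me3 peaks of either replicate met 42 of 87 contig peaks of DEK replicate 1 (48.3%), against 51.3% of all replicate 1 peaks, and 60 of 442 of replicate 2 (13.6%), against 11.0% of all. For shared intervals it was 9 of 18 (50%, 29.0% to 71.0%), against 50.3% of all, and 5 of 18 met it in both H3K4me3 replicates, against 33.7% of all. The kinds of contig differed in replicate 1, where 18 of 23 haplotype peaks (78.3%, 58.1% to 90.3%), 21 of 44 unplaced peaks (47.7%, 33.8% to 62.1%) and 3 of 20 random peaks (15.0%, 5.24% to 36.0%) met H3K4me3. In replicate 2 the shares were 15.0%, 14.8% and 10.0%.

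The haplotype contigs fell into 2 groups that the lists treated differently. The 7 alternative versions of the major histocompatibility complex (MHC) of chromosome 6, the region of the genes that present antigens to T cells, carried 21 peaks in replicate 1 and 63 in replicate 2. chr17_ctg5_hap1 carried 2 and 97, or 21.9% of all contig peaks of replicate 2. Between its first and last replicate 2 peak it had 59.9 peaks per Mb, against 98.2 per Mb of chromosome 17. H3K4me3, in contrast, had 737 and 612 peaks on the MHC contigs and 37 and 29 on chr17_ctg5_hap1, and the contigs together held 1.95% and 2.51% of the H3K4me3 lists.

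The MHC peaks had medians of 45 tags and a score of 104.74 in replicate 1, against 47 tags and 68.8 on the main chromosomes, and of 14 tags and 75.2 in replicate 2, against 20 and 78.3. Among the MHC peaks of replicate 1, the highest score was at 3109990-3112563 of chr6_apd_hap1, with 140 tags, a score of 328.76 and 10.82-fold enrichment. This peak met a replicate 2 peak of 22 tags and an H3K4me3 peak of both replicates. The next, at 2813032-2814392 of chr6_dbb_hap3, had 78 tags, a score of 263.68 and 16.02-fold enrichment, and met neither. Shared intervals were also found at 2713329-2714842 of chr6_mann_hap4 (peaks of 84 and 70 tags), 2162202-2162894 of chr6_cox_hap2 (49 and 18), 2042274-2042360 of chr6_qbl_hap6 (38 and 12) and at a pair of neighbouring peaks of chr6_dbb_hap3, 3081804-3081861 and 3081893-3082385, of 47 tags each in replicate 1 that met the same replicate 2 peak of 12 tags. Of these 6 MHC intervals, 5 met H3K4me3 in both replicates.

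Of 14 pairs of neighbouring replicate 1 peaks on the MHC versions, 5 had a distance that recurred within 500 bp on another version, and 9 did not. Neighbouring replicate 1 peaks were 99534 bp apart on chr6_dbb_hap3, 99372 bp on chr6_mann_hap4 and 99362 bp on chr6_qbl_hap6, and 875271 bp apart on chr6_cox_hap2 and 875749 bp on chr6_mcf_hap5. The sequences of the haplotype contigs were not used here, so their genes are not named. On chromosome 6 itself, 0 of 15 classical MHC and antigen processing genes had a replicate 1 peak within 1 kb, against 13.0% of all annotated genes on the main chromosomes, and 1 of them, HLA-DQA1, which encodes a class II chain, had replicate 2 peaks, 2 in number, against 52.7% of all genes. None had a shared interval, against 5.63% of all. These counts leave out peaks placed on the haplotype versions of the region, and the genes compared were not matched for length.

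Contig peaks also stood out at the top of the replicate 2 list. Of its 10 peaks with the most tags, 7 were contig peaks, 5 of them rDNA. The others included the longest contig peak, singled out here for its length, which spanned 18171 bp of chr4_gl000193_random (77839-96009) with 2252 tags and a score of 92.29 and held 3 matches to the start of the non-coding gene LINC01667. In replicate 1, 2 of the 10 peaks with the most tags were contig peaks, both rDNA. Mitochondrial DNA, which is present in many copies in each cell, had no peak in any of the DEK and H3K4me3 lists. Whether mitochondrial reads were kept up to peak calling is not stated.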

How the data were processed

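DEK and H3K4me3 were precipitated from U937 chromatin, and peaks were called in each precipitation separately. Per the labels and the study's methods, the authors aligned reads with Bowtie2 to hg19 and called peaks with MACS 1.4.1 at default settings against input chromatin. For each DEK peak the deposited lists give the position, a count of tags that the authors did not normalize, the MACS score (10 times −log10 p), the enrichment as a fold ratio to the local background, and the false discovery rate as a percent. The deposited H3K4me3 lists give positions only. The input samples had no list among those analysed here.

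Peaks were grouped by sequence name, and replicates were compared by overlaps of at least 1 bp. Differences were described by medians and shares with 95% Wilson intervals, without tests, since the peaks of a list are not replicates. Sequences came from GRCh37 and were compared by 100-mers taken at every 10th base, counted on both strands of the reference, and by periods of up to 400 bp. Haplotype contigs had no sequence here, so these values cover 64 of 87 and 282 of 442 contig peaks. Gene starts (RefSeq windows of 250 bases before and 50 after the start, GRCh38.p14) and hairpins were placed with BLAST 2.17.0 at 95% identity or more over 90% of their length, and 5.8S at 90%. Annotated gene starts on the main chromosomes came from GENCODE release 44 on GRCh37. Scripts used Python 3.11.15, pandas 2.3.3, NumPy 2.4.6 and Numba 0.67.0 and were tested on simulated data.

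The named items were every class of contig, each contig with a shared interval, the 5 with the most peaks in each list, the rDNA contig, chrM, all shared intervals, the top 3 peaks of each list by tags and by score, genes within 1 kb of a shared interval and classical MHC genes, of which 1 is not reported here. The peaks and lists were chosen with earlier results of these data known. The methods give only a minimum read number over samples, so the depth of each list is unknown here; the lists hold 988363 and 4172422 tags. The alternatives were stricter scores, equal list lengths, larger overlaps, contigs left out and each replicate alone.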

Additional observations from a re-analysis of the deposited data

How the results depend on the processing

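Results are values without a test, taken as moved if they left the spread (1 SD) of the 2 DEK replicates or the Wilson interval. The mean share of contig peaks over both replicates, 0.434% of a list, stayed within that spread under the 5 alternatives that kept both DEK replicates. Without either DEK replicate it was 0.289% to 0.579%, which lies within 1 SD of 2 values by construction. The mean ratio of median tags was 1.25 (1.05 to 1.45 without either DEK replicate) and moved only without the haplotype contigs, to 1.58. The mean ratio of median lengths was 1.08 and hardly differed between replicates (1.07 to 1.08), so that most alternatives moved it: 1.04 at a score of at least 100, 1.14 with the longer list at the length of the shorter, 1.27 without haplotype contigs, 1.06 without chrUn_gl000220 and 1.14 without chr17_ctg5_hap1. The last 2 alternatives were chosen after seeing the data.

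The share of replicate 1 contig peaks that met replicate 2 was 11.1% at a score of at least 100 in both lists, 8.05% with lists of equal length and 10.3% when 50% or more of each peak had to overlap, and the shared intervals numbered 3, 7 and 9 in place of 18. The share of shared intervals with H3K4me3 was 27.8% when a peak in both H3K4me3 replicates was required, and 27.8% to 50% without either H3K4me3 replicate. Neither mean ratio of medians reversed under any alternative, though in replicate 1 alone both did at a score of at least 100. The shares and the count of intervals have no direction that could reverse. No paired analysis was possible because the results come from no test. Depth is unknown, so for a peak missing from the shorter list, lack of binding and lack of depth cannot be told apart. The shorter list, replicate 1, had the higher median of tags per peak, 47 against 20 over all peaks. Its false discovery rate was 100% for every peak. Why a peak was missing from it was not tested.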
